A study of Mus musculus with 6 samples.

Results

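The expression of 10 genes of the ovarian surface epithelium and of the simple epithelial keratin network was followed in day 1 mouse ovaries: Upk1b, Upk3b, Msln, Muc16, Lrrn4, Krt7, Krt8, Krt18, Krt19 and Aldh1a2. They were chosen by name, with earlier results of these data known. Their rows were looked up by symbol in a table of 25164 genes. Of the 10 genes 9 had a row, and all 9 were among the 12442 genes that were tested. Muc16, which encodes the mucin known as CA125, had no row under its symbol or its RefSeq synonyms and was not analysed here.

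Whole ovaries of C57BL/6 mice were profiled by RNA sequencing in 6 libraries, 3 per group. The cKO group carries hnRNPL flox/flox with Stra8-cre, and the second group is labelled wild type (WT), with no statement on whether its animals carry a floxed allele or Cre. Hnrnpl codes for a splicing regulator that binds RNA, and the series asks how it bears on synapsis genes, mTOR and primordial follicles. Stra8-cre drives Cre recombinase in germ cells, whereas the genes described here are known from somatic cells. The protocol text shared by both groups mentions a hormone challenge without naming the hormone, and a lysis buffer with a collagenase blend and DNase. Day 1 is the only age label. Whether the 3 libraries of each group are from separate animals is not stated in the labels, so p-values measure the spread between these libraries, which may be technical.

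The ovary is covered by a single layer of epithelial cells that is continuous with the mesothelium of the body cavity and shares many of its markers. Uroplakins are membrane proteins best known from the bladder lining, where they pack into plaques; Upk1b is a tetraspanin, and Upk3b is a single-pass partner found in mesothelium. Simple epithelia build their intermediate filaments from pairs of keratins, 1 of type II (Krt7, Krt8) and 1 of type I (Krt18, Krt19), and neither type forms filaments alone. Msln, or mesothelin, is a surface protein that binds Muc16, Lrrn4 is a leucine-rich repeat membrane protein of mesothelium, and Aldh1a2 makes retinoic acid from retinaldehyde.

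The values are FPKM, fragments per kilobase of transcript, scaled to the number of mapped fragments, so that levels of genes of different length can be set side by side. Depth, estimated from the smallest steps of FPKM, was 7240000, 10800000 and 12200000 fragments in cKO replicates 1, 2 and 3, and 14300000, 13700000 and 11100000 in WT replicates 1, 2 and 3. Summed FPKM was highest in cKO replicate 1, at 335667, while the rest had 223845 to 246121. Because that library stands apart, values were also divided by a median-of-ratios factor (the median over genes of a library's ratio to the geometric mean of all libraries), which was 1.16 for cKO replicate 1 and 0.956 to 0.999 for the others. These are called scaled values below.

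RefSeq start-site sequences were at hand for 7 of the 10 genes, 6 of them with values in the table, on the GRCm38.p6 build; Upk1b, Msln and Krt19 were not among them. A pair of them is shown whole, because Upk3b and Krt7 are a uroplakin and a keratin whose cKO values all lay below the WT values. Each line gives the 250 bases upstream of the start, read 5′ to 3′ on the gene's strand, with matches to any of 7 short motifs in capitals. The Upk3b stretch lies at chr5:136038246-136038495 and the Krt7 stretch at chr15:101412153-101412402, both on the plus strand.
Upk3b: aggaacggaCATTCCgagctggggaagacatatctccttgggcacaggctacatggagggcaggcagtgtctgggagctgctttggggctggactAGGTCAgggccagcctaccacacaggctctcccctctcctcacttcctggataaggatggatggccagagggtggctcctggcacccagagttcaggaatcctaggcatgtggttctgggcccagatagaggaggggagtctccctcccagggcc
Krt7: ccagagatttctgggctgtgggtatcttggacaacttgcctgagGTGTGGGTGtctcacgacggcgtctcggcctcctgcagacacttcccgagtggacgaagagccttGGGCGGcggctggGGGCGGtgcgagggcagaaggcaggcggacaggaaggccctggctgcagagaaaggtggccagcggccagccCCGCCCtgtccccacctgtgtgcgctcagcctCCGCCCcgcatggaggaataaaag

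The 7 motifs, each searched on both strands, were the TATA box with the letters TATAAA, the CCAAT box with those letters, the GC box with the letters GGGCGG, a WT1-type site with the letters GNGTGGGNG, the half-site of nuclear receptors, retinoic acid receptors among them, with the letters AGGTCA, a TEAD-type site with the letters GGAATG and an AP-1-type site with the letters TGANTCA. No motif contains another, and the matches shown do not overlap. The capitals of the Upk3b stretch are a TEAD-type match on the other strand, read here as CATTCC, and the nuclear receptor half-site. Those of Krt7 are 1 WT1-type match and 4 GC boxes, of which 2 lie on the other strand and read CCGCCC. GC boxes were in 42.5% of all 22339 upstream windows of genes in the table, WT1-type matches in 14.0% and TEAD-type matches in 11.7%. The motif found in the most of these genes was the nuclear receptor half-site, in 4 of 6 windows (Upk3b, Lrrn4, Krt8 and Krt18) against 12.8% of all windows. WT1-type matches were in Lrrn4 and Krt7, TEAD-type matches in Upk3b and Lrrn4, and a CCAAT box in Aldh1a2, while the TATA box and the AP-1-type site had 0 matches in the 6 windows. A match is a stretch of letters and not a measured binding site.

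The 4 half-site matches are shown as 30 bases each, with the half-site in capitals, to let the letters around it be compared. They lie at chr5:136038329-136038358 on the plus strand for Upk3b, chr2:132880853-132880882 on the minus strand for Lrrn4, chr15:102004550-102004579 on the minus strand for Krt8 and chr15:102028096-102028125 on the plus strand for Krt18.
Upk3b: tggggctggactAGGTCAgggccagcctac
Lrrn4: agctgacccgggAGGTCActggttcctaca
Krt8: ataagacagcttAGGTCAgagatcccaggc
Krt18: ctgcgacctgttAGGTCAcaggaatcccga
The half-site began 155 bases upstream of the start in Upk3b, 8 in Lrrn4, 225 in Krt8 and 108 in Krt18. For Lrrn4 the RefSeq start used for this window lies inside the gene's annotated span, whereas the windows of Upk3b, Krt7, Krt8 and Krt18 end at the edge of the span.

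The comparison of cKO with WT ovaries asks whether transcripts of these genes differ when Hnrnpl is targeted in germ cells. The cells of the ovary that the transcripts came from were not measured. Of the 9 genes, Upk1b alone fell by the test over all genes. All 9 had a negative log2 fold change, from -1.47 for Upk1b to -0.24 for Aldh1a2, with a median of -0.56 against 0.08 over all tested genes. The 2 uroplakins were the lowest relative to WT, at 31.1% and 50.4% of the WT mean, followed by Msln, Krt7 and Krt19 at 54.3%, 63.1% and 67.6%. Lrrn4, Krt8, Krt18 and Aldh1a2 stood at 73.1% to 85.4% of the WT mean.

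Genes were tested with limma on log2(FPKM + 1) and called at a Benjamini-Hochberg adjusted p under 0.05 over all 12442 genes; fold changes on this scale understate those of low genes. By this rule 1 of the 9 genes was called lower, where 0.0723% of all tested genes were called lower. In 6 of the 9 genes all cKO libraries lay below all WT libraries, as they did in 7.03% of all tested genes. After scaling 3 of the 9 were called lower (Upk1b, Upk3b and Krt19), against 0.49% of all tested genes, and in 8 of the 9 the groups lay apart in the lower direction, against 12.2%. Krt18 was the gene that still overlapped. Because the genes were chosen with earlier results of these data known, these shares describe them and are no independent test. In whole ovaries, fewer cells of a type and less of a transcript per cell cannot be told apart.

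**Figure D1:**
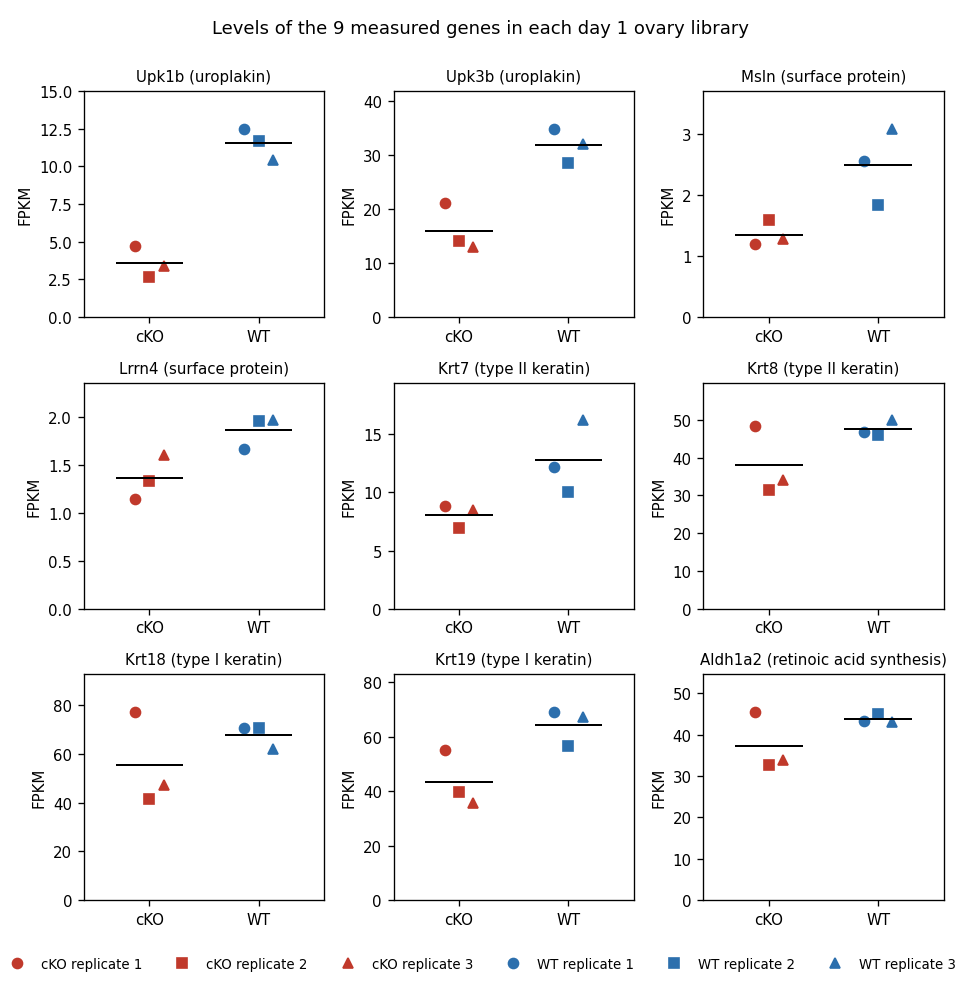
FPKM of the 9 measured genes in each library (y axes start at 0 and differ between panels; points are libraries, lines are group means, n = 3). The groups lie apart for Upk1b, Upk3b, Msln, Lrrn4, Krt7 and Krt19, while cKO replicate 1 lies within the WT range for Krt8 and above it for Krt18 and Aldh1a2.

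Upk1b, on chromosome 16 from 38773182 to 38800203 (GRCm38), stood at 4.70, 2.67 and 3.40 FPKM in cKO replicates 1, 2 and 3 and at 12.5, 11.7 and 10.4 FPKM in WT replicates 1, 2 and 3. The highest cKO library was thus below 5 FPKM and every WT library above 10 FPKM. The means were 3.59 ± 1.03 and 11.5 ± 1.04 FPKM (SD, n = 3), and the log2 fold change, cKO minus WT, was -1.47 (standard error 0.16, limma adjusted p = 0.0428). Its log2 fold change was the 45th from the lowest of all tested genes. At the estimated depths these values stand for at most 49 to 70 fragments per cKO library and 196 to 302 per WT library, since the longest of its transcripts was assumed. The call was lost without cKO replicate 2 (limma adjusted p = 0.0698), WT replicate 1 (0.148), WT replicate 2 (0.127) or WT replicate 3 (0.0886), with log2 fold changes of -1.32 to -1.54 in those fits. It was also lost with no filter on low values (limma adjusted p = 0.106) and without the intensity trend (0.0540). With the replicate number as a block the call was lost too (limma adjusted p = 0.0539).

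Upk3b, on chromosome 5 from 136038496 to 136044993, was the more abundant uroplakin. Its FPKM was 21.0, 14.0 and 13.0 in the cKO libraries and 34.8, 28.4 and 32.0 in the WT libraries. All cKO values lay below all WT values, with cKO replicate 1 the nearest to them. The means of 16.0 ± 4.35 and 31.7 ± 3.19 FPKM (SD, n = 3) gave a log2 fold change of -0.97 (standard error 0.18), which did not pass over all genes (limma adjusted p = 0.0937). With scaled values of 18.0, 14.5 and 13.3 in cKO and 34.8, 28.8 and 33.5 in WT the log2 fold change was -1.04 and passed (limma adjusted p = 0.0143). Without cKO replicate 1, and with no scaling, it was -1.17 and passed as well (limma adjusted p = 0.00959). These values rest on about 505 to 527 fragments per cKO library and 1185 to 1657 per WT library.

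The other uroplakin genes of the table gave a check on the bladder form of the complex. Upk2 was listed at 0 in all 6 libraries, Upk3a was highest in WT replicate 1 at 0.218 FPKM, Upk1a was highest there as well at 0.604 FPKM, and Upk3bl, a paralog of Upk3b, reached 0.101 FPKM in WT replicate 3. None of these 4 genes reached the mean of 1 FPKM needed for testing. The uroplakins measured at more than 1 FPKM in these ovaries were therefore Upk1b and Upk3b.

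Msln, on chromosome 17 from 25748613 to 25754378, was low. It stood at 1.19, 1.58 and 1.28 FPKM in cKO and at 2.55, 1.83 and 3.08 FPKM in WT. The lowest WT library exceeded the highest cKO library by a small margin. Its log2 fold change of -0.56 (standard error 0.17) did not pass (limma adjusted p = 0.228), and it rests on at most 17 to 33 fragments per cKO library. Lrrn4, on chromosome 2 from 132866686 to 132894010, was the least abundant in WT, with 1.15, 1.34 and 1.61 FPKM in cKO and 1.67, 1.96 and 1.97 FPKM in WT. Its groups nearly touched, and its log2 fold change of -0.28 (95% interval -0.61 to 0.05) did not pass either (limma adjusted p = 0.418). About 29 to 69 fragments per cKO library and 77 to 94 per WT library lie behind it.

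Among the type II keratins, Krt7, on chromosome 15 from 101412403 to 101427806, stood at 8.82, 6.93 and 8.47 FPKM in cKO and at 12.2, 9.99 and 16.2 FPKM in WT. WT replicate 3 was the highest library, and without it the log2 fold change moved from -0.59 to -0.42. The difference did not pass in either fit (limma adjusted p = 0.213 and 0.532). Krt8, on the same chromosome from 101996711 to 102004342, stood at 48.4, 31.3 and 34.2 FPKM in cKO and at 46.8, 46.0 and 49.9 FPKM in WT. The first cKO library lay inside the WT range and the other two below it. Its log2 fold change was -0.34 (95% interval -0.73 to 0.04, limma adjusted p = 0.396). It moved both ways with the library left out, to -0.53 without cKO replicate 1, where it passed (limma adjusted p = 0.0466), and to -0.22 without cKO replicate 2 (0.552). RefSeq lists a Krt8 pseudogene that has no row in the table, so reads may be shared between the copies.

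The type I keratins were the most abundant of the 9 genes. Krt18 lies near Krt8 on chromosome 15, from 102028216 to 102032026, although the other type I genes form a cluster on another chromosome. It stood at 77.3, 41.6 and 47.1 FPKM in cKO and at 70.7, 70.7 and 62.1 FPKM in WT. The first cKO library was the highest of all 6, and the other two were below every WT library. The log2 fold change of -0.34 (standard error 0.22) did not pass (limma adjusted p = 0.505). Without cKO replicate 1 it was -0.60 and passed narrowly (limma adjusted p = 0.0494), and without cKO replicate 2 it was -0.16 (0.726). Krt19, on chromosome 11 from 100140810 to 100145926, stood at 55.2, 39.9 and 35.6 FPKM in cKO and at 69.2, 56.8 and 67.4 FPKM in WT. Its groups lay apart by less than 2 FPKM, between cKO replicate 1 and WT replicate 2. Its log2 fold change was -0.57 (standard error 0.18, limma adjusted p = 0.231), and after scaling it was -0.65, just past the threshold (limma adjusted p = 0.0496). Without cKO replicate 1, and with no scaling, it was -0.75 and passed (limma adjusted p = 0.0466).

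Aldh1a2, on chromosome 9 from 71215789 to 71296243, had the smallest difference. Its FPKM was 45.5, 32.6 and 33.9 in cKO and 43.2, 45.0 and 43.1 in WT. Again cKO replicate 1 was above every WT library while the other two were below. The log2 fold change was -0.24 (95% interval -0.57 to 0.09, limma adjusted p = 0.474). Leaving out cKO replicate 1 moved it to -0.38 and leaving out cKO replicate 2 to -0.15, and it passed in neither fit (limma adjusted p = 0.0694 and 0.644).

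**Figure D2:**
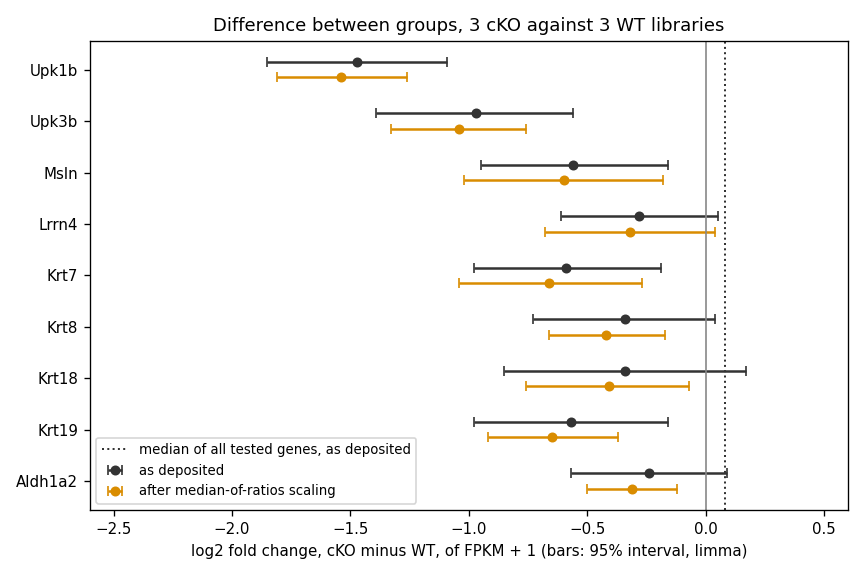
Log2 fold change of FPKM + 1 (x axis, cKO minus WT) with 95% intervals from limma, n = 3 libraries per group, for values as deposited and after median-of-ratios scaling; the dotted line is the median of all tested genes. All 18 points are negative, and the interval of Upk1b as deposited, -1.85 to -1.09, lies below those of the other genes except Upk3b.

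The order of the cKO libraries is given here for the 9 genes. Summed FPKM over all genes was also highest in cKO replicate 1, at 335667. The share of all tested genes with the same order was not computed, so the order is not shown to be particular to these genes. Replicate 1 was the highest of the cKO libraries for 7 of the 9 genes, the exceptions being Msln and Lrrn4, for which it was the lowest. After scaling it was still the highest for 6. Replicate 2 was the lowest cKO library for 5 of the 9 genes. Leaving out cKO replicate 1 brought the number of called genes from 1 to 5 (Upk1b, Upk3b, Krt8, Krt18 and Krt19), all lower, where 0.411% of the 12411 genes tested in that fit were called lower. Over all genes the calls in either direction went from 15 to 89. With cKO replicate 2 or any WT library left out the number was 0, and without cKO replicate 3 Upk1b alone was called (limma adjusted p = 0.0379).

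**Figure D3:**
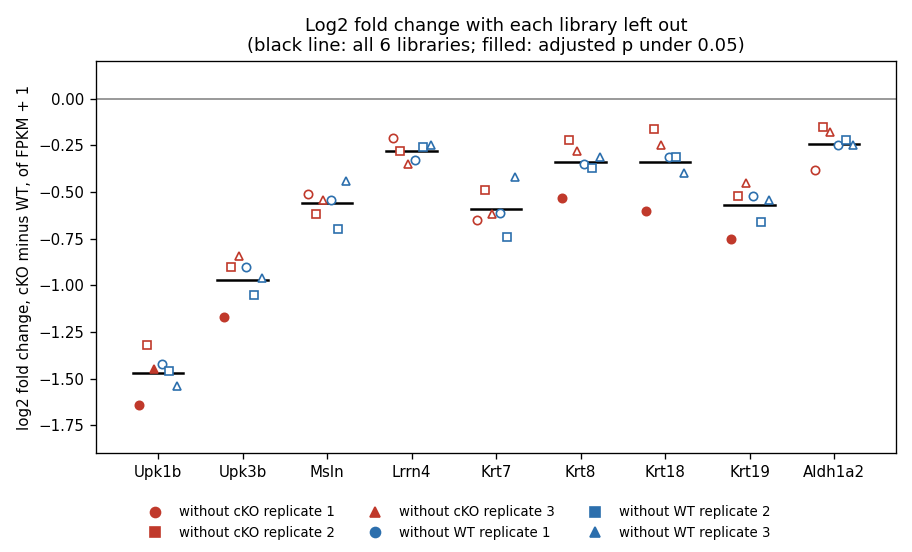
Log2 fold change of each gene (y axis, cKO minus WT, FPKM + 1) with all 6 libraries (black lines) and with 1 library left out (colour and shape give the library; filled points have a limma adjusted p under 0.05). Every value is below 0, and 5 of the 6 filled points belong to the fits without cKO replicate 1.

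In WT ovaries the levels per transcript length ran from Krt18 (67.8 ± 4.98 FPKM) and Krt19 (64.5 ± 6.69 FPKM) through Krt8 (47.5 ± 2.10), Aldh1a2 (43.7 ± 1.09) and Upk3b (31.7 ± 3.19) to Krt7 (12.8 ± 3.14), Upk1b (11.5 ± 1.04), Msln (2.49 ± 0.628) and Lrrn4 (1.87 ± 0.171; SD, n = 3). Neighbours that overlapped between libraries were Krt18 with Krt19, Krt7 with Upk1b, and Msln with Lrrn4. In cKO ovaries the order of the means was the same down to Upk1b. There Krt7 at 6.93 to 8.82 FPKM and Upk1b at 2.67 to 4.70 FPKM no longer overlapped. Msln and Lrrn4 were close to equal, at 1.35 ± 0.202 and 1.36 ± 0.232 FPKM. Relative to all tested genes, the WT mean of Krt18 was at percentile 96.8 and that of Lrrn4 at 11.4.

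Ratios of FPKM within a library do not change when the library is rescaled. In all 8 pairs were compared with an exact two-sided permutation test, for which 0.1 is the smallest p that 3 against 3 libraries allow; they were picked after the values were seen. The ratio of Upk1b to Upk3b was 0.224, 0.190 and 0.262 in cKO and 0.358, 0.413 and 0.325 in WT. Every cKO ratio was below every WT ratio, with a difference of -0.70 on the log2 scale (exact p = 0.1, adjusted over the 8 pairs 0.2). Upk3b was also lower relative to Krt8, at 0.421 ± 0.0360 in cKO and 0.668 ± 0.0666 in WT (SD, n = 3; exact p = 0.1, adjusted 0.2). Relative to Krt19 the ratio was 0.366 ± 0.0141 and 0.493 ± 0.0148, and relative to Aldh1a2 it was 0.425 ± 0.0395 and 0.727 ± 0.0883 (SD, n = 3; both exact p = 0.1, adjusted 0.2). In these 4 ratios the groups did not overlap, and cKO replicate 1 lay with the other cKO libraries.

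The keratins kept closer proportions to each other. The ratio of Krt8 to Krt18 was 0.626, 0.753 and 0.725 in cKO and 0.661, 0.650 and 0.804 in WT, a difference of -0.01 on the log2 scale (exact p = 1). Type II keratins summed (Krt7 and Krt8) stood to type I summed (Krt18 and Krt19) as 0.472 ± 0.0419 in cKO and 0.457 ± 0.0473 in WT (SD, n = 3; exact p = 0.7, adjusted 0.8). In both ratios the groups overlapped. Krt19 relative to Krt18 was 0.809 ± 0.131 and 0.956 ± 0.142, and Krt7 relative to Krt8 was 0.217 ± 0.0330 and 0.268 ± 0.0537 (SD, n = 3; exact p = 0.2 and 0.3, adjusted 0.32 and 0.4).

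**Figure D4:**
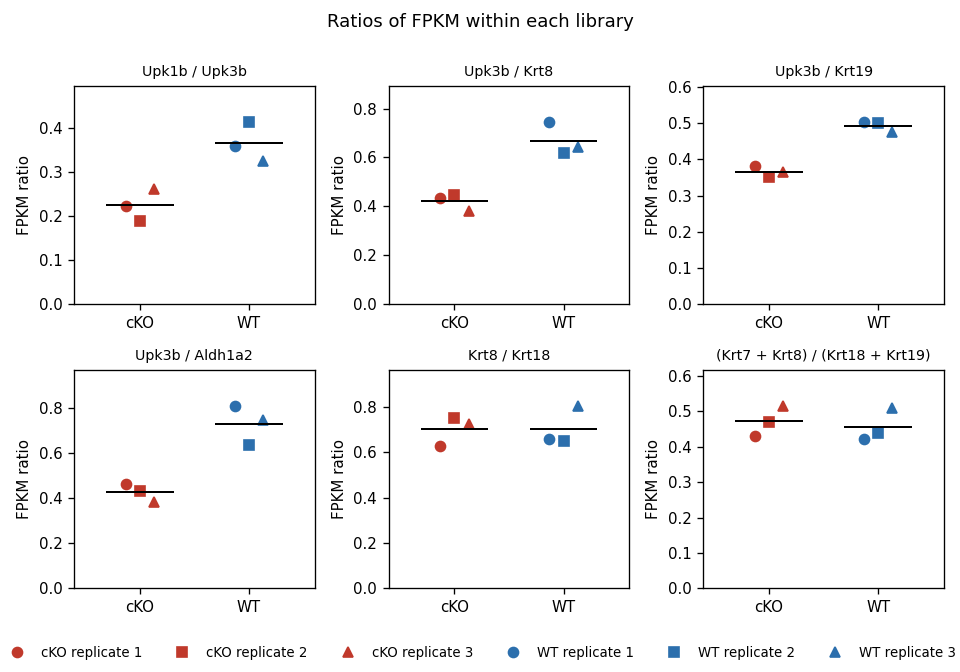
FPKM ratios within each library (y axes start at 0; points are libraries, lines are group means, n = 3). The groups lie apart for the 4 ratios with a uroplakin on top, and overlap for Krt8 to Krt18 and for the summed type II to type I keratins.

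Summed levels of markers of other cell types also lay apart between the groups. The summed FPKM of 5 germ cell markers was 77.0 to 158 in cKO and 55.8 to 66.9 in WT, and that of 5 pregranulosa and granulosa cell markers was 198 to 245 and 181 to 189. The members of these lists did not move alike, and none was called: among germ cell markers Dazl had a log2 fold change of 1.28 and Ddx4 one of -0.07, and among granulosa cell markers Kitl had 0.36 and Fst 0.00. These 4 markers were named after their values were seen. Lower sums in cKO, with no overlap, were measured for 5 markers of stroma and mesenchyme (338 to 365 against 447 to 456), 5 of endothelium (53.0 to 63.7 against 66.6 to 81.6), 4 of smooth muscle and pericytes (25.8 to 31.9 against 38.2 to 41.0) and 5 of erythroid cells (463 to 534 against 772 to 836). No member of these lists was called either. The groups overlapped for Dcn of stroma, Pecam1 and Emcn of endothelium, Rgs5 of smooth muscle and every erythroid marker. For the other members every cKO library was lower, as in 7.03% of all tested genes. Some of these groups nearly touched. The highest cKO and lowest WT values were 21.0 and 21.1 FPKM for Cdh5, 10.1 and 10.2 for Tagln, and 48.4 and 48.8 for Tcf21. The gaps of the remaining members were wider. Hbb-bs, an erythroid marker, alone had a positive log2 fold change, at 0.28. Most of the stroma sum came from Col1a1, at 209 to 218 FPKM in cKO and 269 to 295 FPKM in WT. The sum over the 9 genes described here was 172 to 263 in cKO and 272 to 294 in WT. As shares of the WT mean these sums were 72.0% for the 9 genes, 77.5% for stroma, 75.6% for endothelium, 71.6% for smooth muscle, 61.1% for erythroid cells, 117% for granulosa cells and 190% for germ cells. The part of these differences in the lower uroplakin and keratin values was not tested.

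Tissue next to the ovary can carry some of the same genes. The 6 markers of oviduct, rete and mesonephric epithelium summed to 23.5 to 31.3 FPKM in cKO and 26.0 to 27.5 FPKM in WT, most of it from Emx2, so the sum says little of the other 5. Pax2 and Lhx1 were below 0.1 FPKM in every library. Pax8 stood at 1.17, 0.351 and 0.621 FPKM in cKO and at 1.25 to 1.70 FPKM in the WT libraries. Its groups lay apart in the same direction as those of the uroplakins, with a log2 fold change of -0.56 that did not pass (limma adjusted p = 0.302). Pax8 reached the filter of 1 FPKM only through its WT values. Ovgp1 was higher in every cKO library (0.914 to 1.07 FPKM) than in any WT library (0.312 to 0.716 FPKM) but had too low a mean to be tested, and Foxj1 overlapped between the groups. The part of Pax8-expressing tissue in the values of the 9 genes was not tested. Of 5 markers of bladder urothelium, Upk2 and Krt5 were below 0.1 FPKM in every library, and the sum was 3.85 to 5.99 and 4.17 to 4.53 FPKM, most of it from Trp63, which oocytes also express. Both sums overlapped between the groups. Of 4 macrophage and leukocyte markers the sums overlapped too, at 6.34 to 7.68 and 7.45 to 9.02 FPKM.

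A further 13 genes known from surface epithelium or mesothelium were examined, and 11 of them were tested. None was called by limma over all genes, where 0.121% of all tested genes were called in either direction. At an unadjusted p under 0.05, 4 of the 11 were lower and 2 higher, where 4.26% of all tested genes were lower and 9.89% higher. The median log2 fold change was -0.28, with 8 negative and 3 positive, where 4334 of all tested genes were negative and 8108 positive. After scaling 2 of the 11 were called lower, against 0.49% of all tested genes. Lhx9, a transcription factor of the gonadal surface and somatic cells, had the smallest p, at 10.7, 9.79 and 10.1 FPKM in cKO and 15.5, 16.1 and 15.7 FPKM in WT (log2 fold change -0.58, limma adjusted p = 0.0645, and 0.0150 after scaling). Podxl, which encodes podocalyxin, was the second gene called after scaling (log2 fold change -0.49, limma adjusted p = 0.0255). It was named after its values were seen. Gpm6a, a membrane glycoprotein of mesothelium, averaged 2.77 ± 0.688 FPKM in cKO and 5.34 ± 0.914 FPKM in WT (SD, n = 3; limma adjusted p = 0.148). Calb2 and Mslnl were not tested because their means were under 1 FPKM. Cdh1 and Epcam, epithelial adhesion genes that germ cells also express, had log2 fold changes of 0.65 and 0.34. Neither was past the threshold (limma adjusted p = 0.148 and 0.328), and both were named after their values were seen. Which cells the values of this list come from was not measured, for the lower genes as for the higher ones.

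Of 13 other keratins, Krt20 was the 1 that reached the mean needed for testing, at 3.88 ± 0.831 FPKM in cKO and 2.79 ± 0.116 FPKM in WT (SD, n = 3; log2 fold change 0.35, limma adjusted p = 0.326). Krt5, Krt6a and the other keratins of stratified epithelium on the list had means under 1 FPKM. The desmosome and plakin list, whose proteins tie keratin filaments to the membrane, had 6 of 8 genes tested, 5 of them negative, with a median of -0.21 and 0 called by limma (1 of 6 lower at an unadjusted p under 0.05, against the 4.26% of all tested genes, and 0 called after scaling). Ppl, or periplakin, averaged 0.948 ± 0.135 FPKM in cKO and 1.68 ± 0.0654 FPKM in WT, while Pkp2, a plakophilin, averaged 8.52 ± 2.06 FPKM in cKO and 6.39 ± 0.749 FPKM in WT (SD, n = 3; limma adjusted p = 0.237 and 0.380). Ppl is the 1 gene counted as lower. It reached the filter of 1 FPKM only through its WT values, so that count is partly a matter of the filter. Tight junction genes had 5 of 9 tested and a median of -0.07, with 0 called, 0 after scaling and 0 at an unadjusted p under 0.05 (limma); Ocln and Cldn1 had log2 fold changes of -0.27 and -0.15. Of 5 other membrane mucins Muc1 alone was tested, with a log2 fold change of 0.23 (limma adjusted p = 0.540).

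Aldh1a2 is 1 of several enzymes that set retinoic acid levels. Of 19 further genes for its synthesis, breakdown, carriage and reception 12 were tested, 6 with positive and 6 with negative log2 fold changes and a median of -0.02. None was called by limma, with or without scaling; at an unadjusted p under 0.05, 2 of 12 were higher and 1 lower, against 9.89% and 4.26% of all tested genes. Rbp4, the retinol carrier of blood, stood at 0.539, 0.947 and 0.320 FPKM in cKO and at 1.77, 1.42 and 1.85 FPKM in WT (limma adjusted p = 0.186). It is the 1 gene counted as lower. Its cKO mean of 0.602 FPKM was under the filter of 1 FPKM, which Rbp4 reached only through its WT values. Without WT replicate 3 it was not tested, so its lower value is partly a matter of the filter. Crabp1, a cytosolic retinoic acid binding protein, stood at 9.45, 11.2 and 7.65 FPKM in cKO and at 6.31, 7.58 and 5.64 FPKM in WT (limma adjusted p = 0.252). The groups lay apart for Rbp4 and by a narrow gap for Crabp1. Aldh1a1, the related enzyme, was far more abundant than Aldh1a2, at 272 ± 62.1 FPKM in cKO and 218 ± 2.67 FPKM in WT (SD, n = 3; limma adjusted p = 0.505), and Stra8, a retinoic acid target of germ cells, was listed at 0 in all 6 libraries. These last 2 genes were named after their values were seen.

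**Figure D5:**
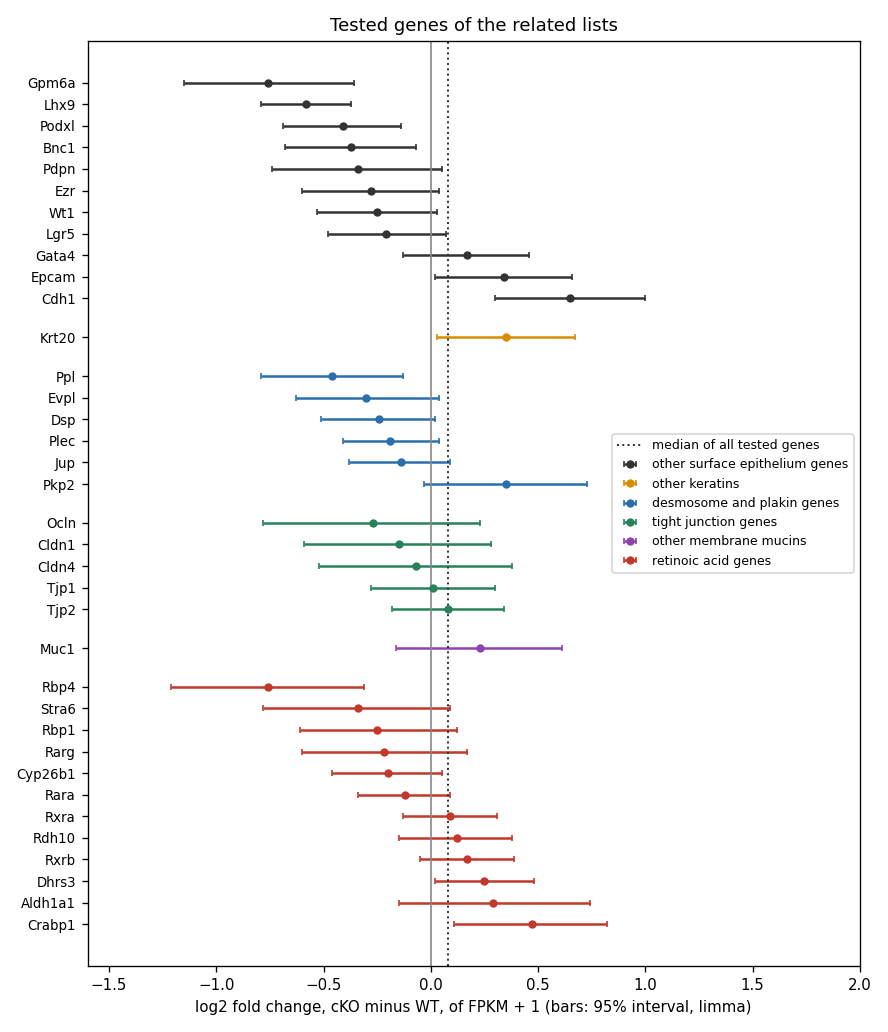
Log2 fold change of FPKM + 1 (x axis, cKO minus WT) with 95% intervals from limma for the tested genes of the related lists, n = 3 libraries per group; the dotted line is the median of all tested genes. None of these genes passed over all genes. Gpm6a and Rbp4 lie lowest at -0.76, and Cdh1 highest at 0.65. Rbp4 and Ppl had cKO means under 1 FPKM and reached the filter through their WT values.

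Over the 6 libraries, tested genes were ranked by how close their deviations from the WT mean lay to the mean deviations of Upk1b and Upk3b. The genes described here, predicted loci (Gm followed by digits, or names ending in Rik) and genes without a RefSeq entry were not ranked. Genes left out in this way may lie closer. The closest of the ranked genes were Nlrp4f, Npm2, Snora7a, Wdr36 and Ly6g6e. Their root mean square differences were 0.196, 0.251, 0.263, 0.282 and 0.283 on the log2(FPKM + 1) scale. Nlrp4f and Npm2 are oocyte genes, Snora7a is a small nucleolar RNA and Wdr36 acts in ribosome production. Npm2 and Ly6g6e had cKO means of 0.986 and 0.873 FPKM and reached the filter of 1 FPKM through their WT values. Nlrp4f has close relatives that could share its reads, and stood at 4.55, 3.80 and 3.08 FPKM in cKO and at 11.9, 12.6 and 8.85 FPKM in WT. Of the genes described here, Krt19 was the next closest at 0.467, with 46 of the ranked genes closer. The likeness is a description over 6 libraries of 2 groups.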

How the data were processed

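RNA sequencing of day 1 ovaries gave 3 cKO and 3 WT libraries. FPKM values per gene symbol, computed by the authors, were deposited as 1 table. The submitters' processing notes name featureCounts 2.0.6, HISAT2 2.2.1, STAR 2.7.11a and mm10 without roles; the program that computed FPKM and the annotation are not given in the sources used here. The deposited file's name speaks of duplicate removal, a step that no label describes.

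Genes whose mean over all libraries was at least 1 FPKM were fitted as log2(FPKM + 1) with limma 3.58.1 (R 4.3.3, intensity trend, two-sided, Benjamini-Hochberg). The fit was tested on simulated data. Depth was estimated in 2437 genes with 1 GENCODE M21 transcript of 1500 bp or longer, with fragments taken as 200 bp; 74.1% to 77.9% of low values lay within 0.15 of a whole fragment. Ratios were tested by exact permutation (scipy 1.17.1). Coordinates and start-site sequences came from RefSeq (GRCm38.p6). Named were all 10 genes, the called genes and the 2 with the smallest p of each related list, and the 5 genes most alike. Further genes, Podxl among them, were named after their values were seen. The 10 genes, the lists and the alternatives were chosen with earlier results of these data known. Alternatives changed the pseudocount, filter, scaling, trend, library weights, replicate block and libraries used; a correction for transcript length was added after seeing the data. Where a library was left out, the filter was applied again to the remaining libraries; this was settled after a first fit that kept the filter over all 6 libraries.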

Additional observations from a re-analysis of the deposited data

How the results depend on the processing

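All 9 genes kept a negative log2 fold change under every alternative in which they were tested, 16 for most and 15 for Msln and Lrrn4, which a filter at a mean of 5 FPKM removed. Upk1b ranged from -1.85 to -1.32 and was called in 9 of 16; Upk3b and Krt19 were called in 6 of 16, Krt8 in 3, and Krt7, Krt18 and Aldh1a2 in 1 each. Of the 9 genes 1 was called in the fit reported; 0 were called with no filter or without the intensity trend, 3 after median-of-ratios scaling, with library weights or with the length correction, and 5 after quantile normalization or TPM rescaling. Leaving out 1 library gave 0 to 5.

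Over all tested genes 15 were called, 6 higher and 9 lower. The count was 34 with a pseudocount of 0.1, 5 with no filter, 23 with a filter at 5 FPKM, 5 without the intensity trend, 172 with library weights and 219 with the length correction. It was 162 after median-of-ratios scaling (101 higher, 61 lower), 236 after quantile normalization (131 and 105) and 149 after TPM rescaling (56 and 93). TPM rescaling moved the median log2 fold change of all genes from 0.08 to -0.12. Leaving out 1 library gave 2 (without WT replicate 1 or 2) to 89 (without cKO replicate 1), with 4 without cKO replicate 2, 74 without cKO replicate 3 and 6 without WT replicate 3. The cause was not tested.

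With the replicate number as a block 2 genes were called, and 0 of the 9; Upk1b kept a log2 fold change of -1.47 (limma adjusted p = 0.0539). Same-numbered libraries correlated at -0.011, 0.039 and 0.068 in their deviations from the group means. Libraries of different numbers correlated at -0.066 to 0.028. Not every library correlated best with its own number. Correlations this small, in so few libraries, cannot show whether the numbers pair the samples. Depth limits Msln and Lrrn4 most.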
